A study of Mus musculus with 3 samples.

Results

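BMP, TGF-beta and hedgehog signalling genes were read by 78 of the 12422 probe sets analysed on the array, from 63 of the 8251 genes measured. A probe set belonged when its 1 annotated symbol named a BMP, GDF, Nodal, TGF-beta, activin or inhibin ligand, one of their antagonists, latency proteins, receptors or Smads, or a core member of the hedgehog pathway. The symbol rule also took in Bmp1, Bmp2k, Tgfbi and Tgfb1i1, which are named after these pathways but are not ligands. The samples were 3 pools of neural retina from mice at postnatal day 7 (P7), each of 3 to 4 animals. Their total RNA was profiled on Affymetrix MG-U74Av2 arrays, on which a gene is read by 1 or more sets of short probes. The animals were wild type, on a mixed background of 129/SvEv and C57BL/6, and had littermates without Rp1 that belonged to other experiments. Retinas were taken between 1 and 2 pm. All 3 pools formed 1 group, so that no conditions were compared, and the numbers of the pools are names only.

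TGF-beta family ligands bind pairs of type I and type II receptor kinases, which phosphorylate receptor Smads. These join Smad4, the shared partner, and enter the nucleus, while Smad6 and Smad7 dampen the signal. In the hedgehog pathway the ligand relieves the inhibition of Smo by Ptch1, and Gli factors then act on target genes. In the retina BMPs are known for setting dorsal identity early in eye development, and Shh from ganglion cells for acting on progenitors.

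Intensities are given on a scale common to the 3 arrays, in the order of pools 1, 2 and 3, and a mean ± SD is over n = 3 pools. The background bar of an array was the 90th percentile of 59 genes chosen as specific to organs other than the eye (liver, gut, pancreas, gonads, lung and others). It lay at 259, 293 and 298. Of these 59 genes, 2 were above it in all 3 pools. The pancreas gene Cela1 was at 73.0, 427 and 695, above it in pools 2 and 3, so that not all of the list was quiet in these samples. A gene below the bar was not shown to be silent, and intensities of different probe sets say nothing on which transcript was more abundant. All 16 measured marker genes of retinal neurons and glia passed the bar in all 3 pools. The summed lens markers were at 26799, 126923 and 136385, so that pool 1 was the low one. The 3 pools had 11 or 12 equal values per pair as deposited, among 12488 probe sets, so none was present more than once.

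Of the 63 genes, 9 were above the bar in all 3 pools (14.3%), against 45.9% of all genes on the array. These were the ligand genes Tgfb2 and Tgfb3, the latency gene Ltbp3, the activin receptor genes Acvr2a and Acvr2b, the Smad genes Smad1, Smad2 and Smad4, and the hedgehog receptor gene Ptch1. A further 14 passed in 1 or 2 pools and 40 in none. With the 75th percentile of the genes from other organs as the bar, 25 of the 63 passed (39.7%, against 59.4% of all genes). Counted by probe set, 12 of 78 passed (15.4%, against 39.3% of all probe sets). In whole retina, fewer cells that express a gene and less RNA per cell cannot be told apart.

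**Figure D1:**
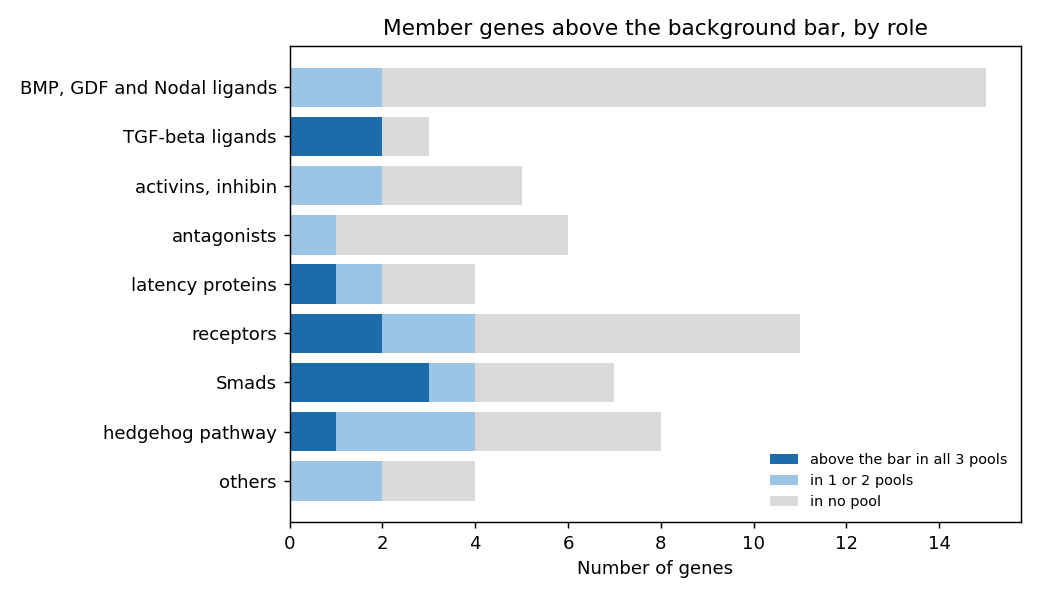
Number of member genes, by role, whose chosen probe set was above the background bar in all 3 pools, in 1 or 2 pools or in no pool. Smads had 3 of 7 genes above the bar in all pools and TGF-beta ligands 2 of 3, and none of the 15 BMP, GDF and Nodal ligand genes was.

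**Figure D2:**
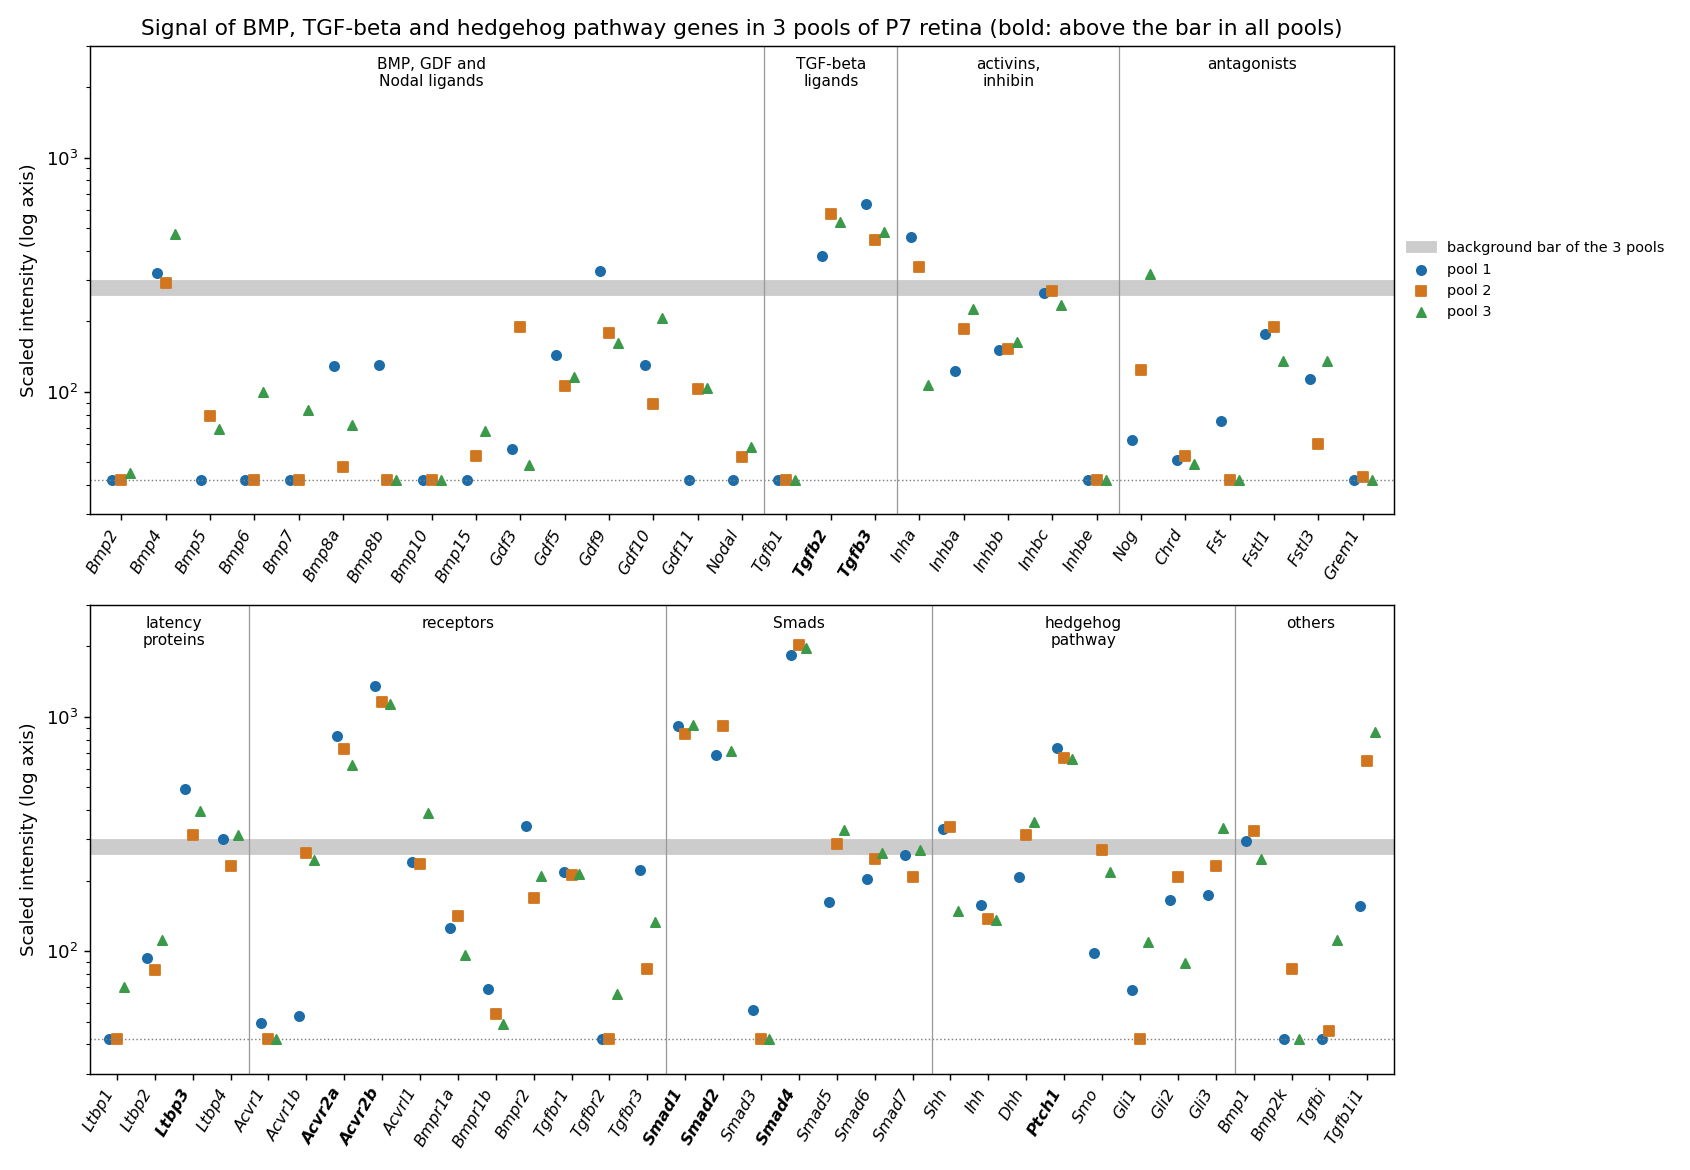
Scaled intensity (log axis) of the chosen probe set of each of the 63 genes in pools 1, 2 and 3, grouped by role. The grey band spans the bars of the 3 pools, 259 to 298, the dotted line is the floor of 42.2, at which lower values are drawn, and bold names mark the 9 genes above the bar in every pool.

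Among the ligands, Tgfb2 and Tgfb3 were the genes above the bar in all pools. Tgfb2 had intensities of 380.0, 572 and 529.7 (494 ± 101), with pool 1 the low one. Tgfb3 had 636, 445 and 479 (520.2 ± 102), with pool 1 the high one. Both encode ligands of the TGF-beta receptors, and neither varied beyond probe sets of its brightness (limma adjusted p = 0.992 for each). The third gene of the subfamily, Tgfb1, stayed below the floor of 42.2 in every pool, at 15.3, 23.0 and 18.8.

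None of the 15 BMP, GDF and Nodal ligand genes passed in all pools. Bmp4, the dorsal ligand of the early eye, came closest, at 322, 291 and 471. Its pool 2 value lay just under the bar of 293, while the other pools were above theirs, and its name marks a probe set that several transcripts can share. Gdf9, a growth factor of the oocyte, was at 327, 178 and 162, above the bar in pool 1 alone. The remaining 13, among them Bmp2, Bmp5, Bmp6, Bmp7, Gdf11 and Nodal, were below the bar in every pool, between 3.49 and 207. Bmp8a and Bmp8b are close paralogs, and their values are uncertain for that reason too.

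Activin and inhibin subunit genes did not pass in all pools either. Inha, which encodes the alpha subunit that turns an activin into an inhibin, was at 456, 339.9 and 107, above the bar in pools 1 and 2 and far below it in pool 3. Inhbc was near the bar throughout, at 264, 269 and 235, above it in pool 1 alone. Inhba and Inhbb, which encode the subunits of activins A and B, were below the bar at 122, 185 and 225 and at 150.5, 152 and 162, and Inhbe was below the floor in every pool.

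The 6 genes of extracellular antagonists and follistatin-like proteins were mostly below the bar. Nog, whose product traps BMPs, was at 62.2, 124 and 318, so that it passed in pool 3 alone and the pools differed widely below that. Chrd, the gene of another BMP trap, was at 51.3, 53.4 and 49.2, close in all pools and near the floor. Fst, Fstl1, Fstl3 and Grem1 lay below the bar in every pool, between 18.5 and 189. Among the latency proteins, which hold TGF-beta in the matrix, Ltbp3 passed in all pools at 494, 315 and 395 (401 ± 89.6), with pool 2 near its bar. Ltbp4 was at 301, 230.3 and 314, below the bar in pool 2, and Ltbp1 and Ltbp2 were below it everywhere, between 17.8 and 111.

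The receptor genes above the bar in all pools were the type II receptors for activins. Acvr2b was at 1358, 1157 and 1134 (1216 ± 123) and Acvr2a at 829, 733 and 622 (728 ± 104), each highest in pool 1 with a range of no more than 1.33-fold over the pools. Bmpr2, the type II receptor of BMPs, was at 342, 168 and 210.0, above the bar in pool 1 alone. Acvrl1, the endothelial type I receptor ALK1, passed in pool 3 alone by its chosen probe set, at 240, 235 and 387. The type I receptor genes Acvr1, Acvr1b, Bmpr1a, Bmpr1b and Tgfbr1, the type II receptor gene Tgfbr2 and the co-receptor gene Tgfbr3 were below the bar in all 3 pools, between 19.8 and 262. Tgfbr1 was steady there, at 217, 212 and 213, whereas Acvr1b was at 52.9, 262 and 245, with pool 1 low.

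Of the 7 Smad genes, Smad1, Smad2 and Smad4 were above the bar in all pools. Smad4 was at 1830, 2036 and 1966 (1944 ± 105), a range of 1.11-fold. Smad1, a receptor Smad of the BMP branch, was at 911, 845 and 924 (894 ± 42.5), and a second probe set of it, which can read more than 1 related transcript, at 1294, 1592 and 1464. Smad2, a receptor Smad of the TGF-beta and activin branch, was at 686, 919 and 716 (774 ± 127), with pool 2 the high one. Of the 8 Smad probe sets 7 were tested, and limma found excess spread for none of these 7, with an unadjusted p below 0.05 for 0 of them, while that of Smad3 was too dim to be tested.

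The other Smads did not pass in all pools. Smad5, of the BMP branch, was at 162, 287 and 329.9, above the bar in pool 3 alone, a 2.04-fold range (limma adjusted p = 0.983). The inhibitory Smads lay below it in all pools, Smad6 at 203, 247 and 261 and Smad7 at 258, 207 and 271, and Smad7 missed the bar of 259 in pool 1 by less than 1 unit. Smad3, the partner of Smad2 in the TGF-beta branch, was at 56.0, 15.8 and 40.6, near or below the floor.

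In the hedgehog pathway the receptor gene Ptch1 was the 1 gene of 8 above the bar in all pools, at 738, 664 and 659 (687 ± 44.4), a range of 1.12-fold. Shh was at 331, 339 and 148, above the bar in pools 1 and 2 and below it in pool 3 (2.30-fold range, limma adjusted p = 0.743). Dhh was at 206, 313 and 357, below the bar in pool 1, and Ihh at 157, 137 and 135, below it in all. Smo, which encodes the signal transducer held back by Ptch1, was at 97.8, 271 and 217, below the bar in every pool. The same held for Gli1, a target and effector of the pathway, at 68.3, 7.73 and 110 (pool 2 below the floor), and for Gli2 at 166, 207 and 89.1. Gli3, which acts mainly as a repressor without ligand, was at 173, 230.3 and 335, above the bar in pool 3 alone.

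The other genes named after the pathways were Bmp1, Bmp2k and Tgfbi, besides Tgfb1i1. Bmp1, whose product is a protease that cleaves procollagen and the BMP antagonist chordin, was at 296, 327 and 247, above the bar in pools 1 and 2. Bmp2k, a kinase gene, and Tgfbi, which encodes a matrix protein induced by TGF-beta, were below it in all pools, at 30.3, 83.8 and 39.1 and at 40.0, 45.4 and 111.

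For 12 of the 63 genes there was more than 1 probe set, and for 5 of them the probe sets differed in passing the bar in all pools. For Acvr2a, the other probe set was at 133, 179 and 187, with pool 1 low where the chosen one had it high. Tgfb3 had a second probe set at 29.5, 82.0 and 75.01, also with pool 1 low where the chosen one had it high. The second probe set of Ptch1 was at 230.3, 326 and 376, above the bar in pools 2 and 3. These genes therefore rest on the probe set chosen, which was the one with the higher mean among those without a letter suffix in the name.

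For Acvrl1 and Dhh the probe sets that passed carry such a suffix. That of Acvrl1 marks looser rules of probe selection, and that of Dhh marks probes that related transcripts can share. The Acvrl1 probe set that passed was at 329, 318 and 348, and the last of the 3 probe sets of this gene at 151, 145 and 119. For Dhh the suffixed probe set was at 404, 374 and 519 and another at 20.7, 16.4 and 15.0, below the floor. Counting a gene as above the bar by any of its probe sets gave 11 of 63 (17.5%, against 47.5% of all genes). The 2 probe sets of Smad1 both passed, and no probe set of Bmp1, Bmp2, Bmp4, Bmp6, Gdf3 or Tgfbi passed in all pools.

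**Figure D3:**
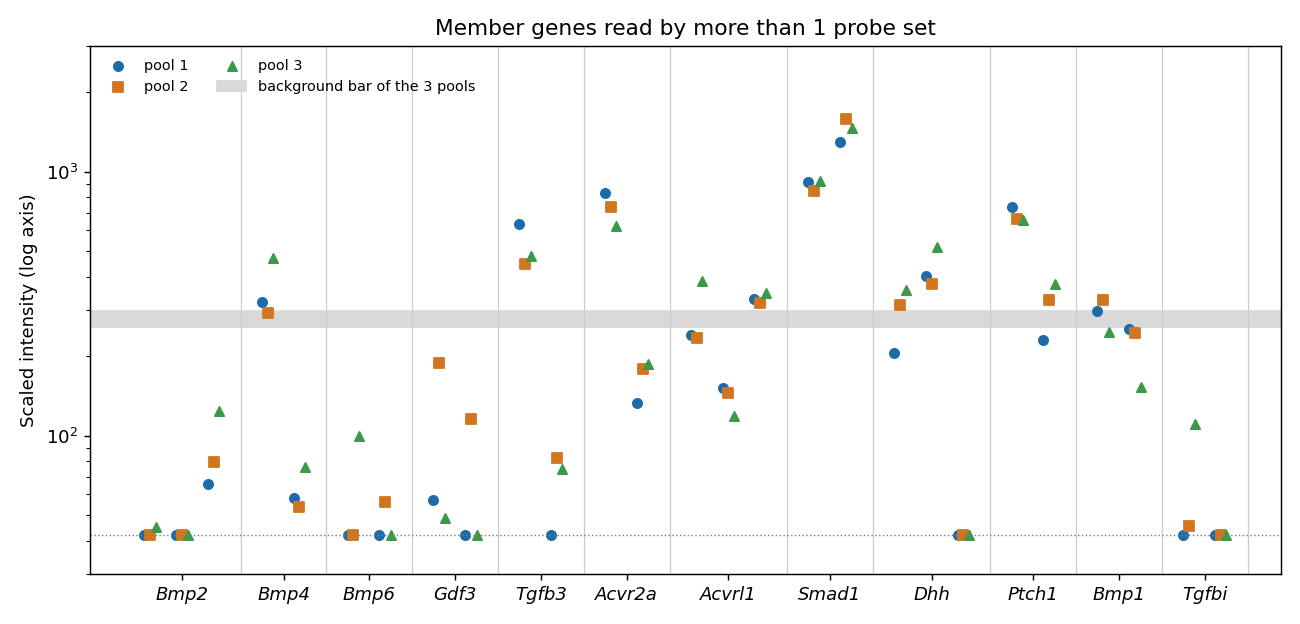
Scaled intensity (log axis) in pools 1, 2 and 3 of every probe set of the 12 genes read by more than 1, the chosen probe set leftmost for each gene. The grey band spans the bars of the pools and the dotted line is the floor of 42.2. Probe sets of Tgfb3, Acvr2a, Acvrl1, Dhh and Ptch1 differed in passing the bar in all pools, and both of Smad1 passed in all.

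Promoter windows from RefSeq (GRCm38.p6), from 250 bases before to 50 after a transcript start, were matched by gene ID for 46 of the 63 genes. The 6 of these above the bar in all pools held a median of 29 CpG dinucleotides in the window richest in them (from 3 to 54), the other 40 a median of 23 (from 2 to 51), and 6572 genes of the array a median of 20. The lines below show the CpG-richest and the CpG-poorest of the 6, those of Acvr2a with 54 and Ltbp3 with 3 in the whole window. Each is printed up to 10 bases after the start with CpG in capitals, so that 49 and 2 of them appear. These genes above the bar had promoters of very unlike composition.
Acvr2a, chr2:48813859-48814118, plus strand: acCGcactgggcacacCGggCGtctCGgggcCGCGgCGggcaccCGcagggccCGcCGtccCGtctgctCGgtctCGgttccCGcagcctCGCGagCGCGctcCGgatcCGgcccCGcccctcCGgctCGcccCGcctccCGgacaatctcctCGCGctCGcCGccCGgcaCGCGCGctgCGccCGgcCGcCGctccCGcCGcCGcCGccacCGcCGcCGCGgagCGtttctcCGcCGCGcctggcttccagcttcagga
Ltbp3, chr19:5740650-5740909, plus strand: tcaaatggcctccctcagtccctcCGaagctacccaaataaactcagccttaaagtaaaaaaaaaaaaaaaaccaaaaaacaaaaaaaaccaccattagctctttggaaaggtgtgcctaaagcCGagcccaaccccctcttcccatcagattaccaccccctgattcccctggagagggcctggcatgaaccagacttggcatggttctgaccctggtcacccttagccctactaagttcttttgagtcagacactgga

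Among the 54 windows of member genes, 1 held the Smad-binding palindrome GTCTAGAC (1.85%, against 0.321% of windows of genes on the array). It was that of Smad6, which encodes an inhibitor of BMP signalling and is known as a target of that pathway, and it is shown with the palindrome in capitals. The palindrome began 4 bases before the transcript start. The GC-rich BMP element GCCGNCGC, searched on both strands and itself made of CpG, was in 18 of the 54 windows, from 16 genes. That was 33.3% of the members' windows, against 16.7% of those of array genes. In the window richest in CpG, all members with a window held a median of 24 and array genes 20, and the part of this in the difference was not tested. The Gli motif GACCACCCA was in 0 of the 54 and in 0.131% of those of array genes, which says only that these letters are not in these windows. A match describes the sequence and is not a shown site.
Smad6, chr9:64022050-64022309, minus strand: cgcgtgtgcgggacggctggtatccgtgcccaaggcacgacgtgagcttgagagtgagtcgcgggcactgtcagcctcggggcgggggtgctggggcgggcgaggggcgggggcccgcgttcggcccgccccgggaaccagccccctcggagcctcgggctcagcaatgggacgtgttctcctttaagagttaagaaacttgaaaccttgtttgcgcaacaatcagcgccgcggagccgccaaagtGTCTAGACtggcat

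The spread between pools was tested with limma in the brighter 50% of the array, 6211 probe sets, each variance being compared with what limma estimated for its level. Of the 78 member probe sets, 27 were bright enough (34.6%). Of these, 2 had excess spread at an adjusted p below 0.05 (7.41%, against 1.34% of all probe sets tested), those of Tgfb1i1 and Inha. The remaining 51 were not tested. Since brightness was averaged over the pools, a probe set high in some pools alone could enter, as both of these did.

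Tgfb1i1, which encodes the focal adhesion adaptor Hic-5, first found as a TGF-beta-induced transcript, was at 156, 646 and 865 (limma adjusted p = 5.34e-05). Pool 1 was below its bar, and the average of pools 2 and 3 was at least 2.88-fold higher, taken against that bar. The same pool had the low values of the lens markers, 8 of 8 of which had excess spread among those tested, with sums of 26799, 126923 and 136385. Connective tissue and muscle markers summed to 1877, 2931 and 2027, with 2 of 13 above the bar, and vessel markers to 2951, 2760 and 2700, with 2 of 11 above it. Pigment epithelium markers summed to 891, 1115 and 1223 and astrocyte markers to 884, 1291 and 1159. These sums were lowest in pool 1 too, with 1 of 7 and 1 of 4 above the bar. The pigment marker above the bar, Dct, was lowest in pool 2 (347, 333 and 472). The astrocyte sum was mostly Pdgfra (686, 1104 and 1039), whereas S100b, below the bar, was highest in pool 1 (107, 63.7 and 29.6). Microglia markers summed to 2486, 2699 and 2910, with 4 of 10 above the bar. Of these 4, C1qa (327, 400 and 370) and C1qc (387, 667 and 654) were lowest in pool 1. The other microglia markers above the bar, Cx3cr1 (402, 357 and 578) and Cd14 (581, 351 and 562), were lowest in pool 2. No gene of any of these lists was listed at 0. The 3' to 5' ratio of the Actb control, a measure of RNA length and labelling, was 1.81, 1.27 and 1.30, highest in pool 1 as well. That of the Gapdh control was 0.874, 0.788 and 0.812, highest in pool 1 too but with the pools closer together. The part of these tissues and cells and of RNA quality in the Tgfb1i1 values was not tested. Without pool 1 its adjusted p was 0.983 and without pool 2 it was 0.315, and it was 0.218 with the arrays as deposited and 0.168 after quantile normalisation. When all probe sets were tested it was 0.266, as part of a range from 5.85e-05 to 0.983 over 10 alternatives.

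Inha, described above at 456, 339.9 and 107, had the lowest value in pool 3 (limma adjusted p = 0.0386). That value lay below the bar, and the average of pools 1 and 2 was at least 1.32-fold higher, taken against the bar of pool 3. Vessel markers (2951, 2760 and 2700) and red blood cell markers (3240, 6959 and 3081, with 1 of 5 above the bar) also had their lowest sums in pool 3. Of the 2 vessel markers above the bar, Kdr (1303, 1177 and 1168) was lowest in pool 3 and Mcam (381, 387 and 389) in pool 1. The red blood cell sum was mostly Hba-a1, at 2914, 6705 and 2821. The part of these cells in the Inha values was not tested. The call was lost without pool 2 (adjusted p = 0.736) and without pool 3 (0.996), and without pool 1 the probe set was too dim to be tested. It was lost under both other scalings (0.659 as deposited and 0.495 after quantile normalisation). It was also lost with a pseudocount in place of the floor (0.0659), without limma's robust option (0.227) and when all probe sets were tested (0.266). Over 9 alternatives the adjusted p ran from 0.00586 to 0.996.

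A range above 2-fold was seen for 5 of the 27 tested member probe sets (18.5%, against 8.63% of all tested). Besides Tgfb1i1 (5.55-fold) and Inha (4.25-fold) these were Shh (2.30-fold), Smad5 (2.04-fold) and Bmpr2 (2.03-fold), and in all 5 the lowest pool was below its bar. The count was 1 without pool 1, 5 without pool 2 and 2 without pool 3. Apart from the new scaling, a range over fewer pools cannot be larger, so a lower count is partly built in. The median range of the 27 was 1.39-fold and that of all tested probe sets 1.40-fold. With the arrays as deposited these medians were 1.55-fold and 1.37-fold, and after quantile normalisation 1.46-fold and 1.36-fold, so that how the members' median stood to that of the array turned with the scaling. At the steady end were the chosen probe set of Smad1 (1.09-fold), the suffixed one of Acvrl1 (1.09-fold), Smad4 (1.11-fold), Ptch1 (1.12-fold) and Inhbc (1.14-fold).

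**Figure D4:**
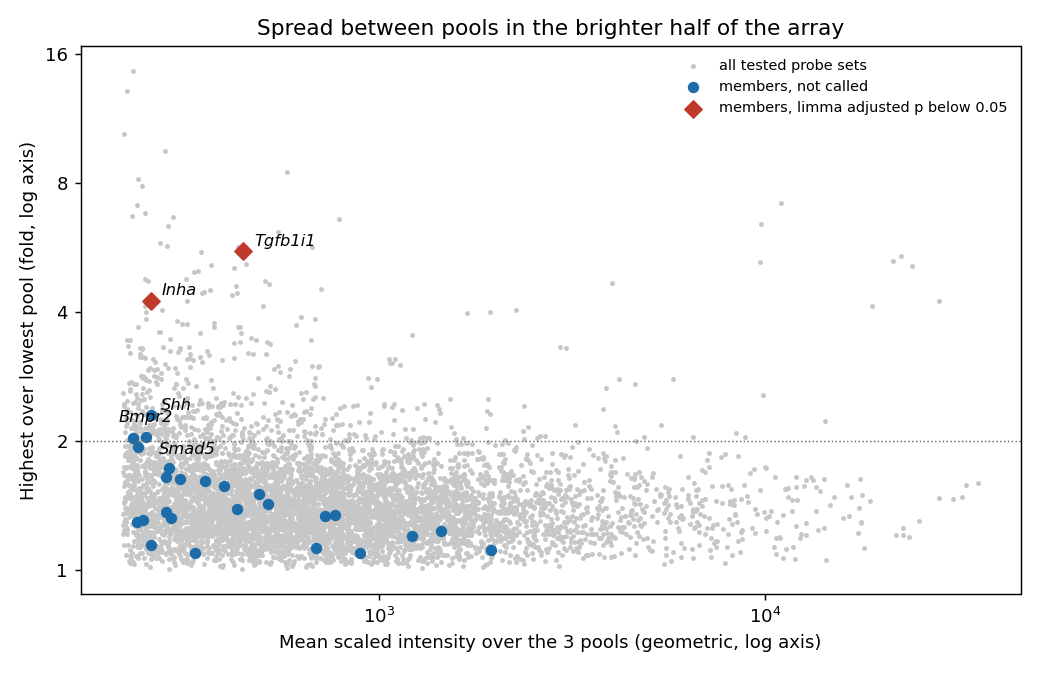
Highest over lowest pool (fold, log axis) against the geometric mean of the scaled intensity over the 3 pools (log axis) for the 6211 tested probe sets (grey) and the 27 member probe sets (blue circles, or red diamonds for a limma adjusted p below 0.05). Tgfb1i1 at 5.55-fold and Inha at 4.25-fold stand above the other members, and the dotted line is at 2-fold.

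By pool, pool 3 held the highest value for 13 of the 27 tested member probe sets (48.1%, against 22.6% of all tested probe sets), among them Bmp4, Acvrl1, Smad5, Gli3 and Dhh. Pool 2 held the lowest for 10 (37.0%, against 19.5%). The median log2 deviation of the members from their own means was -0.01, 0.02 and 0.05, against -0.04, 0.11 and -0.07 for all tested. Scaling each array to its median shifted pool 2 by 0.12 on the log2 scale, and as deposited pool 3 held the highest value for 59.3% of members against 31.3% of all tested. These shares are a description of 3 arrays with no test.

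Genes that act in the same pathways but lie outside the symbol rule were read from lists. Among co-receptors, activators and repressors of the BMP and TGF-beta pathways, 9 of 22 measured genes were above the bar in all pools (40.9%, against 45.9% of all genes on the array). Eng, the TGF-beta co-receptor endoglin, was at 413, 622 and 344, with pool 2 the high one. Furin, a protease that cleaves the ligands' precursors, was at 1234, 974 and 1137, and the repressor gene Ski at 771, 1063 and 751. Twsg1 (474 ± 93.9), which encodes a BMP-binding protein, Pcsk6 (336 ± 37.8), another precursor-cleaving protease, and Tob1 (1362 ± 128), an inhibitor of BMP Smads, passed as well.

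Among textbook targets of BMP signalling 7 of 11 measured genes passed in all pools (63.6%, against 45.9% of all genes). The inhibitors of basic helix-loop-helix factors Id2 (675 ± 28.1), Id3 (562 ± 114) and Id4 (909 ± 45.9) were among them, as were the Notch and BMP target Hey1 (475 ± 79.4) and the dorsal eye genes Tbx2 (1358 ± 99.0) and Efnb1 (355 ± 68.4). Id1 was at 444, 369 and 264 and passed in pools 1 and 2. Of the TGF-beta targets 6 of 13 passed (46.2%, against 45.9% of all genes), among them the matrix genes Col1a1 (448 ± 107) and Fn1 (739.7 ± 114), the cell cycle inhibitor gene Cdkn1a (434 ± 62.5), the protease inhibitor gene Timp1 (839 ± 159), Tsc22d1 (3299 ± 248) and Klf10 (786 ± 84.3). These genes answer to other signals too, and 4 of the listed genes, Col1a1, Col1a2, Dcn and Postn, are also markers of connective tissue.

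Of the further hedgehog components 3 of 7 passed (42.9%, against 45.9% of all genes), Gas1 (1248 ± 141), a hedgehog co-receptor gene, and the kinase genes Prkaca (1368 ± 345) and Csnk1a1 (2756 ± 530.4), which serve many pathways. Of 8 hedgehog targets besides Ptch1 and Gli1, 3 passed (37.5%, against 45.9% of all genes), the cyclin gene Ccnd1 (1946 ± 288), Mycn (1064 ± 72.0) and Bcl2 (438 ± 46.3). Excess spread was found by limma for 0 of the 12 modulators, 9 BMP targets, 8 TGF-beta targets, 4 hedgehog components and 3 hedgehog targets tested, and an unadjusted p below 0.05 was found for 0 of them.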

How the data were processed

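The authors deposited 1 intensity per probe set and array on a linear scale, from 0.1 to 55245.8, scaled per array to a mean near 500 without the extreme 2% at each end (500.2, 500.3 and 500.2). Their computation from the scans is not given in the sources used here. Per the labels, the array type was read from the titles. Of 12422 probe sets without the 66 controls, 10833 had 1 gene symbol, 396 several and 1193 none in the platform annotation, and 10817 were updated by gene ID through RefSeq (GRCm38.p6). Each pool mixed several animals and nothing more is known of the replicates, so p-values cover the spread between these arrays alone, which may be technical, and the number of arrays limits the precision.

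Arrays were scaled to equal medians (log2 shifts -0.06, 0.12 and -0.06), floored at the 20th percentile, 42.2, and put on the log2 scale. A gene was read by its probe set without a letter suffix, then by the highest mean. In the 50% of probe sets with the highest mean, each variance (2 degrees of freedom) was compared with the prior of limma 3.58.1 (squeezeVar, robust, trend on level, R 4.3.3), and the upper-tail p-values, at the highest prior degrees of freedom, were adjusted by Benjamini-Hochberg over all 6211, at 0.05. The procedure was tested on simulated data. Members, lists, tests and rules were chosen with earlier results of these data known. The rule for values named members above the bar in all pools, those with excess spread, the 5 of largest range, those whose probe sets differed, Shh, Ihh, Dhh, Ptch1, Smo and Gli1, and up to 6 genes above the bar per pathway list. Other members were named to complete their group. Alternatives were other scalings, filters, floors, limma settings, bars and leaving out each pool.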

Additional observations from a re-analysis of the deposited data

How the results depend on the processing

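The number of member genes above the bar in all pools was 9, and 9 with the arrays as deposited and 9 after quantile normalisation, 11 by any probe set and 11 to 12 on leaving out single pools, but 25 with the 75th percentile as the bar. The number of member probe sets with excess spread was 2, and 0 as deposited, 0 with quantiles equalised, 0 when all probe sets were tested, 0 in the brightest 25%, 1 with a pseudocount of 32 in place of the floor, 1 without limma's robust option and 0 to 1 on leaving out single pools. At an unadjusted p below 0.05 it was 2 in the first 3 of these and 0 in the brightest 25%, where 7 members were tested. Over the whole array the count of 83 became 6 as deposited, 6 with quantiles equalised, 0 when all probe sets were tested (141 at an unadjusted p below 0.05), 28 in the brightest 25%, 38 without the robust option and 9 to 30 on leaving out single pools. The number of members with a range above 2-fold was 5, but 21 when all were tested, 3 with the pseudocount and 1 to 5 on leaving out single pools. The prior degrees of freedom of limma, which enter each p-value for excess spread, were 279 in the main setting. They were 8.56 as deposited, 8.66 with quantiles equalised and 0.851 when all probe sets were tested. Without the robust option they were 19.2, and without pool 2 they were 7.96. They were infinite in the brightest 25% and without pool 1 or pool 3, where the count of the array fell as well. The cause of the changes in all these counts was not tested, except that testing all or the brightest 25% changes which probe sets enter. For the 27 tested members singly, 261 of 273 alternative settings left the call as it was, mostly for members called in no setting. The 12 that did not were losses for Inha and Tgfb1i1, which had only 9 and 10 alternatives. No paired analysis was possible because there was 1 group. Signal over background limits the rest: 51 of 78 member probe sets were below the bar in every pool.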
